A study of Saccharomyces cerevisiae with 6 samples.

Results

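The regions described here are Pdr1 peaks in divergent promoters: CUT&RUN peaks whose summit lay in a space between a pair of protein-coding genes that are transcribed away from each other, so that the starts of both genes face the summit. They were taken from both Pdr1 peak lists by position alone. A summit had to overlap no protein-coding gene of the R64 gene models, the gene to its left had to lie on the Crick strand and the gene to its right on the Watson strand, as their systematic names state. The rule found 305 of the 792 peaks in the replicate 1 list (38.5%, 95% Wilson interval 35.2 to 41.9%) and 208 of the 485 peaks in the replicate 2 list (42.9%, 38.6 to 47.3%). These 513 of 1277 Pdr1 peaks lay in 297 of the 1527 divergent spaces of the genome. Wilson intervals cover counting error only, and peaks of 1 list share a library, so no test was made over peaks.

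In CUT&RUN an antibody directs a nuclease to a protein in permeabilised nuclei, and the DNA released beside the protein is sequenced. The study mapped the yeast (Saccharomyces cerevisiae) factors Pdr1 and Pdr3 in cells grown in YPD at 30 °C. The strain YRP10 gave both Pdr1 lists, from libraries made with an anti-c-Myc antibody, and the strain Pdr3_3xmyc gave a single Pdr3 list with the same antibody; the labels give neither the tag of Pdr1 in YRP10 nor any further genotype of either strain, and they do not say whether the replicates were separate cultures. Rabbit IgG libraries exist for both strains but were not analysed here, so no control value stands beside the peaks, and the lists hold no read counts, so their depth is unknown.

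Pdr1 is a zinc-cluster activator that, with its paralog Pdr3, turns on the pleiotropic drug resistance genes. Many of these encode ABC transporters that pump drugs out of the cell, and others act in sphingolipid and phospholipid metabolism. In the compact yeast genome, neighbouring genes often share 1 divergent promoter, and a factor bound there could act on either gene, on both or on none. A peak in such a space therefore does not tell which gene, if any, it serves.

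Pdr1 summits were found in 269 divergent spaces in replicate 1 (17.6% of all 1527) and in 192 in replicate 2 (12.6%). In 160 spaces (10.5%) member peaks of both lists overlapped by at least 1 bp. Among the 2828 tandem spaces, where 1 start faces the space, 11.6% held a summit in replicate 1 and 6.82% in replicate 2. Convergent spaces, which no start faces, were at 1.32% and 0.595%. Per length of DNA, divergent spaces held 28.6 summits per 100 kb in replicate 1 and 19.5 in replicate 2, against 21.3 and 12.4 in tandem spaces and 4.03 and 1.73 in convergent spaces. Per gene start the order of the first pair turned round: divergent spaces held 9.99 and 6.81 summits per 100 starts, and tandem spaces 12.4 and 7.25. Members were of ordinary strength for their lists. Their fold enrichment over the authors' reference had a median of 4.96 in replicate 1 (quartiles 3.82 and 6.66, all peaks 4.86) and 4.81 in replicate 2 (3.94 and 5.96, all peaks 4.85), and they supplied 17 and 20 of the 50 strongest peaks. All 16 chromosomes held members, from 7.69% of the divergent spaces of chromosome III to 25% of those of chromosome VII in replicate 1.

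Divergent spaces with a peak were long. Their median length was 902 bp in replicate 1 (quartiles 653 and 1361 bp, n = 269) and 964.5 bp in replicate 2 (675 and 1468 bp, n = 192). All divergent spaces had a median of 511 bp (quartiles 286 and 802 bp), and the 1230 spaces without a peak in either list had a median of 440 bp. Spaces of 500 bp or less made up 48.4% of all divergent spaces, but 9.67% of those with a peak in replicate 1 and 8.33% in replicate 2. Of the 415 spaces of up to 300 bp, 1 held a summit in replicate 1 and 0 in replicate 2, for which the upper Wilson bound is 0.917%.

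**Figure D1:**
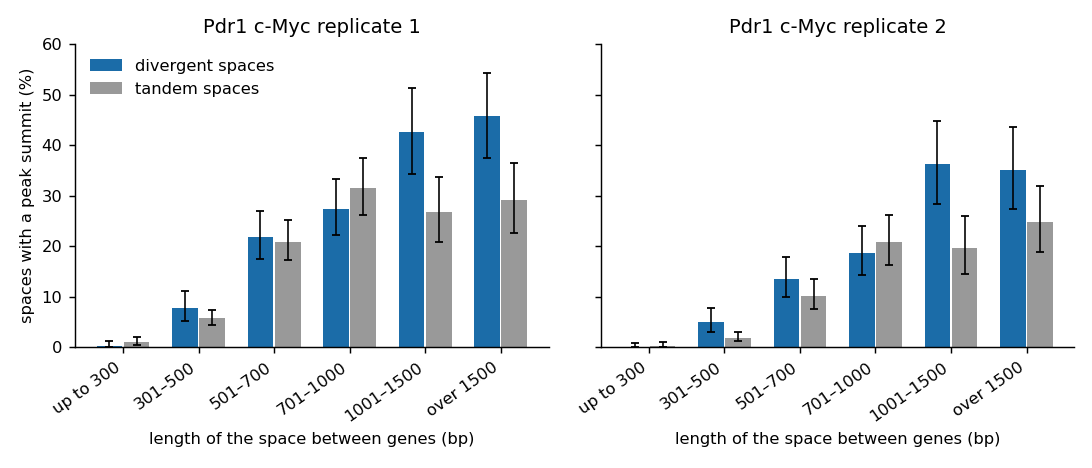
Share of divergent (blue) and tandem (grey) spaces that held at least 1 Pdr1 summit, by length of the space in bp, for each Pdr1 replicate; bars start at 0 and error bars are 95% Wilson intervals. In divergent spaces of 1001 to 1500 bp the share was 42.5% in replicate 1 and 36.2% in replicate 2, against 26.8% and 19.7% in tandem spaces of that length.

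The share of spaces with a peak climbed with length up to 1500 bp in both replicates. In replicate 1 it was 7.72% from 301 to 500 bp, 21.8% from 501 to 700 bp, 27.4% from 701 to 1000 bp, 42.5% from 1001 to 1500 bp (34.3 to 51.2%) and 45.8% above that (37.5 to 54.3%). In replicate 2 the same classes held 4.94, 13.5, 18.7, 36.2 (28.4 to 44.9%) and 35.1%. Summit density per DNA changed less between 501 and 1500 bp, at 36.3, 36.5 and 38.3 per 100 kb in replicate 1 and 22.5, 23.8 and 31.7 in replicate 2. Above 1500 bp it was lower, at 26.7 and 18.01 per 100 kb. At equal length the kinds of space are set side by side with their intervals, which cover counting error only and are no test. From 301 to 500 bp the intervals overlapped in replicate 1 but not in replicate 2, where divergent spaces were at 4.94% (3.06 to 7.87%) and tandem spaces at 1.94% (1.25 to 3.01%). From 501 to 1000 bp the intervals of divergent and tandem spaces overlapped in both replicates. From 701 to 1000 bp the tandem shares were above the divergent ones, at 31.5% in replicate 1 and 20.9% in replicate 2. From 1001 to 1500 bp they did not overlap in either replicate: tandem spaces were at 26.8% (20.9 to 33.6%) in replicate 1 and at 19.7% in replicate 2. Above 1500 bp tandem spaces held 29.1% (22.7 to 36.4%) in replicate 1, below the divergent interval of 37.5 to 54.3%, whereas in replicate 2 the intervals overlapped (18.9 to 32.0% and 27.5 to 43.6%).

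Summits stood back from both starts. The nearer annotated start, which in these gene models is in most cases the first coding base, was a median of 314 bp away in replicate 1 (quartiles 218 and 428 bp) and 335 bp away in replicate 2 (246 and 472 bp). The farther start was a median of 634 bp away in replicate 1 and 651.5 bp in replicate 2. Only 10 of the 305 replicate 1 summits (3.28%) and 6 of the 208 replicate 2 summits (2.88%) were under 100 bp from a start. Both starts lay within 500 bp of the summit for 38.7% of the replicate 1 members and 36.1% of the replicate 2 members, so for these a 500 bp upstream window would have named both genes. The nearer gene lay on either strand about equally often: the Crick gene was nearer for 50.2% of the summits in replicate 1 (44.6 to 55.7%) and 47.6% in replicate 2 (40.9 to 54.4%).

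**Figure D2:**
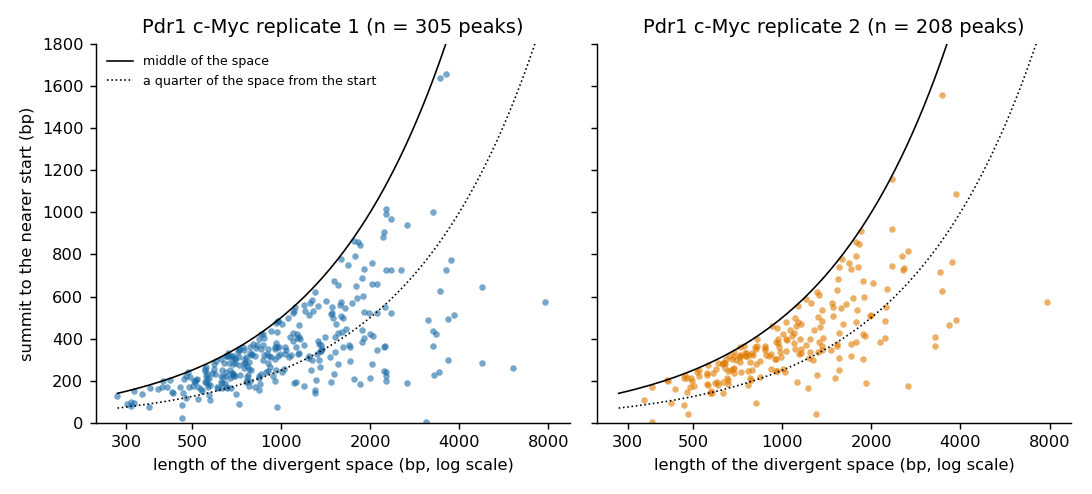
Distance in bp from each member summit to the nearer annotated start (y axis) against the length of its divergent space in bp (x axis, log scale), 1 point per peak; the solid line is the middle of the space and the dotted line lies at 25% of the length. Most points lie between the lines (74.8% in replicate 1 and 79.8% in replicate 2), and in spaces over 1500 bp the median relative position is close to the dotted line in replicate 1 (0.25).

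Within the space, summits lay toward the middle, but little so in the longest spaces. With 0 at the nearer start and 0.5 at the middle, the median relative position was 0.33 in replicate 1 and 0.35 in replicate 2. Evenly spread summits would give 0.25. The central 50% of the space held 74.8% of the replicate 1 summits (69.6 to 79.3%) and 79.8% of the replicate 2 summits (73.8 to 84.7%). This changed with length. From 501 to 700 bp the median relative position was 0.37 in replicate 1 and 0.40 in replicate 2, and the nearer start was a median of 222 and 239 bp away. Above 1500 bp the relative position fell to 0.25 and 0.28, while the nearer start was 510.5 and 570 bp away and the farther one 1478 and 1393.5 bp away. In tandem spaces the single start was a median of 377.5 bp from the summit in replicate 1 and 426 bp in replicate 2. The end of the upstream gene was a median of 351 and 385 bp away, so these summits also stood back from both genes. Member peaks rarely reached a gene body: 95.1% in replicate 1 and 96.6% in replicate 2 lay wholly inside the space, and none in either list spanned both starts.

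Several long spaces held more than 1 peak. In replicate 1, 31 spaces held 2 or 3 members (67 peaks), and in 26 of them the summits were split between both genes, at least 1 nearer to each. In replicate 2 this was so in 12 of 14 such spaces. The space between NRG1, a repressor of glucose-repressed genes, and HEM13, a heme synthesis enzyme, showed it at both ends (chromosome IV, 543370 to 546641, 3272 bp). Both replicates had a summit 363 bp from NRG1, at base 543732, with fold enrichments of 7.85 and 6.16. At the other end the summits stood 437 bp from HEM13 in replicate 1 (3.94-fold) and 409 bp in replicate 2 (6.83-fold). A replicate 1 peak between them (3.91-fold, base 544369) had no partner in replicate 2. Each enrichment is the peak's own value from the authors' peak caller, and ranks run from 1 for the highest value of a list.

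Upstream of MSN4, an activator of general stress genes, and YKL063C (chromosome XI, 321519 to 323227) replicate 1 listed 2 peaks and replicate 2 listed 3. A single replicate 1 peak of 1020 bp covered both of the replicate 2 peaks on the MSN4 side.

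The replicates were then compared. Of the replicate 1 members, 170 (55.7%, 50.1 to 61.2%) overlapped a replicate 2 peak, and the share over all 792 replicate 1 peaks was 52.1%. Of the replicate 2 members, 177 (85.1%, 79.6 to 89.3%) overlapped a replicate 1 peak, and over all 485 it was 86.2%. Members thus matched the other list about as often as peaks elsewhere: in tandem spaces the shares were 51.4% (46.2 to 56.6%) and 89.8% (84.8 to 93.2%). The strongest members matched most often. Among the 77 strongest replicate 1 members 72.7% overlapped a replicate 2 peak (61.9 to 81.4%), against 50.0% of the weakest 76 (39.0 to 61.0%). The groups of 76 between them were at 53.9 and 46.1%, so below the strongest group the share did not fall steadily. In replicate 2 the shares were 96.2% for the strongest 52 members (87.0 to 98.9%) and 78.8% for the weakest 52 (66.0 to 87.8%), with intervals that met at their ends. The groups of 52 between them were at 86.5 and 78.8%.

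Counted by space, 160 of the 297 (53.9%, 48.2 to 59.5%) held overlapping members of both lists, 105 held members of replicate 1 alone and 28 of replicate 2 alone. In the other 4 (YNL018C/PUB1, DPI8/MRS3, RPL8B/FPS1 and HEM2/YGL039W) both lists had a member but these did not overlap. In the 160 spaces the gap between the replicates' highest-ranked summits had a median of 31 bp (quartiles 10 and 106 bp), and 16 pairs fell on the same base. They were nearer to the same gene in 127 spaces (79.4%, 72.5 to 84.9%). In the remaining spaces they were nearer to different genes, except at RPL19A/AAC3, where the replicate 2 summit was 361 bp from both starts. In 12 of the 160 spaces the strongest members of the lists were separate peaks, among them NRG1/HEM13, RTA1/RPS0A and CYC3/CDC19, so that their gap, ratio and rank compare different peaks. For fold enrichment of the strongest peaks, the ratio of replicate 1 to replicate 2 had a median of 1.09 (quartiles 0.790 and 1.41). It stayed within 1.5 times in 107 spaces. Members spanned a narrow range (quartiles 3.82 and 6.66 in replicate 1, 3.94 and 5.96 in replicate 2). Unrelated values would therefore often fall within 1.5 times as well, and the count does not show agreement in strength. In 12 of the 160 spaces the strongest members ranked in the top 10% of both lists.

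**Figure D3:**
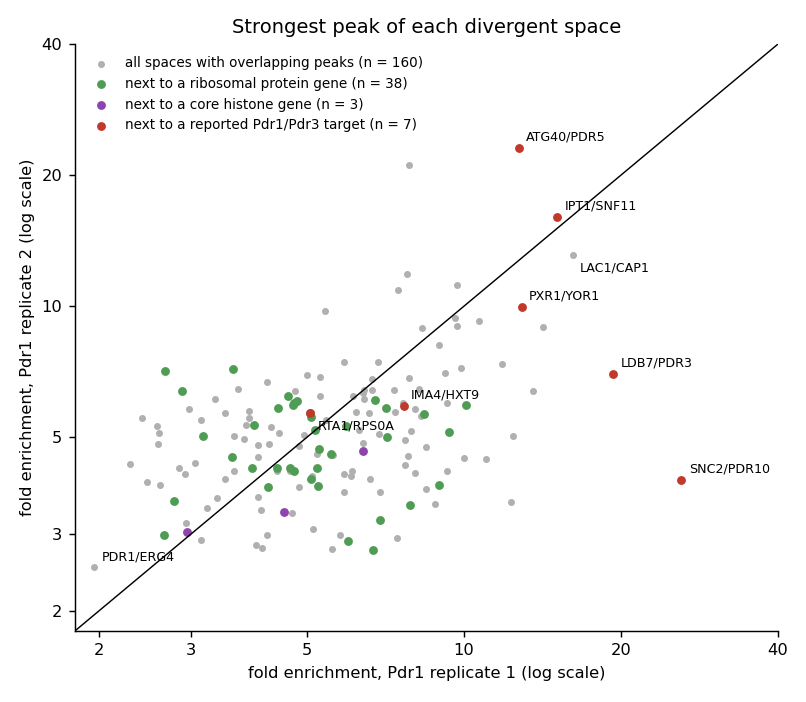
Fold enrichment of the strongest member peak in replicate 1 (x axis) and replicate 2 (y axis), both log scales, for the 160 divergent spaces with overlapping members (in 12 of them the strongest members are separate peaks); colours mark spaces next to ribosomal protein, core histone and reported Pdr1/Pdr3 target genes, and the line marks equal values. SNC2/PDR10 lies farthest below the line (26.1 and 4.00), and ATG40/PDR5 and IPT1/SNF11 lie at the upper right.

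The widest disagreements were singled out after their values were seen. At SNC2/PDR10 the strongest peak was 26.1-fold enriched in replicate 1 (rank 3) and 4.00-fold in replicate 2 (rank 362), a ratio of 6.53. Between the sodium pump gene ENA1 and RSM10, a mitochondrial ribosomal protein gene, the values were 12.3 and 3.55. The other way, at RGI2/VHR1, replicate 1 gave 7.87-fold (rank 115) and replicate 2 gave 21.1-fold (rank 4), with both summits at base 249215 of chromosome IX. In this space the base was shared, and the ranks by fold enrichment, in lists of unequal length, were far apart. By the −log10 q-value of the lists the replicates were closer there, at 179 in replicate 1 and 195 in replicate 2. At SNC2/PDR10 that value also differed widely, at 139 and 13.3, and at ENA1/RSM10 it was 70.9 and 10.8.

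Some strong members had no counterpart. In replicate 1 these were led by the space between RTG3, an activator of the mitochondrial retrograde response, and SFT2 (17.1-fold, rank 11; chromosome II, summit 23890), by RPL38/YLR326W (12.3-fold, rank 30) and by ICT1/MIM2 (10.8-fold, rank 42). None of the 3 spaces held a replicate 2 member. In replicate 2 the leading cases were weaker. They were YRF1-6/COS1 (6.63-fold, rank 72), MYO4/FRT2 (6.28-fold, rank 91) and CHA1/VAC17 (5.95-fold, rank 117). YRF1-6 and COS1 belong to subtelomeric families of near-identical copies, and how the authors placed reads that match several copies is not stated, so that peak is uncertain. The same limit holds for other members next to genes of these families, at YFL064C/COS4, COS6/YRF1-3, YML133C/COS3 and YOR394C-A/YRF1-8. All of these spaces are among the 28 with members of replicate 2 alone.

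The gene pairs were read through lists of genes, beginning with 20 reported targets of Pdr1 and Pdr3. Of these, 11 have their start at a divergent space, each at a different one. A member lay in 10 of these 11 spaces in replicate 1, where 17.6% of all divergent spaces had one. Replicate 2 had one in 7 of 11 (all divergent spaces: 12.6%), and members of both lists overlapped in 7 (all: 10.5%). The 11 spaces had a median length of 978 bp, and in all divergent spaces of 701 to 1000 bp the shares were 27.4% and 18.7%. Their peaks also stood high, with a median rank of 34 of 792 and 56 of 485 for the strongest member, against 362 and 237 over all spaces with a member. The genes were chosen because they are known targets, and these lists were compiled with earlier results of the same data known, so the counts describe the genes and support nothing further.

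**Figure D4:**
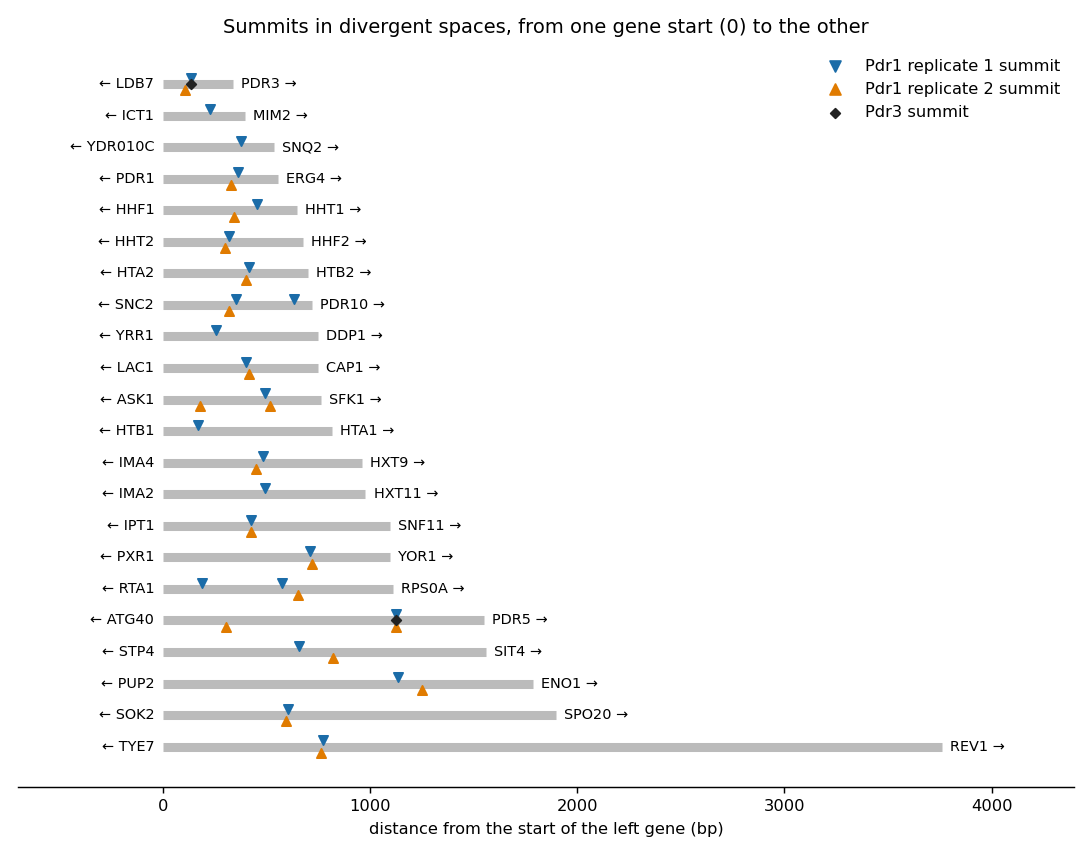
Position of the summits in divergent spaces next to reported targets, core histone genes and zinc-cluster regulators and in the 10 best-ranked spaces; each bar runs from the start of the left gene (0) to the start of the right gene, in bp, and arrows give the direction of transcription. Triangles are Pdr1 summits and diamonds Pdr3 summits. The replicate summits coincide at IPT1/SNF11 and at the PDR5-proximal peak.

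Among the ABC transporter genes, PDR5 encodes the major drug efflux pump of the plasma membrane. It shares 1551 bp with ATG40, a receptor gene for autophagy of the endoplasmic reticulum (chromosome XV, 618289 to 619839). Both replicates had their strongest summit at base 619413, 427 bp from PDR5 and 1125 bp from ATG40, at 12.8-fold and 23.1-fold. Replicate 2 resolved a second peak 307 bp from ATG40 (6.69-fold), where the single replicate 1 peak, 1250 bp wide, covered both. YOR1, the oligomycin efflux pump gene, shares 1098 bp with PXR1, a gene of ribosomal RNA processing (chromosome VII, 1051726 to 1052823). Its summits lay 388 and 378 bp from YOR1 and 711 and 721 bp from PXR1, with fold enrichments of 12.9 and 9.96.

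PDR10, a close relative of PDR5, shares 721 bp with SNC2, which encodes a vesicle SNARE (chromosome XV, 931082 to 931802). The summits lay almost midway, 370 bp from PDR10 and 352 bp from SNC2 in replicate 1 and 403 and 319 bp in replicate 2. So the nearer gene was SNC2 in both lists. A second replicate 1 peak stood 90 bp from PDR10 (5.30-fold) without a match in replicate 2. SNQ2, another multidrug ABC transporter gene, shows how the rule depends on small annotated genes. Its space (535 bp) held 1 weak replicate 1 member, 3.41-fold, at 160 bp from SNQ2. The stronger peaks had their summits 108 bp (10.9-fold, replicate 1) and 72 bp (12.6-fold, replicate 2) outside the space, inside the annotated gene YDR010C, and were not members. A Pdr3 summit (3.26-fold) lay 68 bp outside it, in the same gene. PDR18, an ABC transporter gene in a space of 2782 bp with BSC5, had no member in either list.

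The 2 best-ranked spaces each bordered a gene of sphingolipid synthesis. The space with the best mean of both ranks lay between LAC1, which encodes a ceramide synthase subunit, and CAP1, an actin-capping protein gene (chromosome XI, 428552 to 429301, 750 bp). Its fold enrichments were 16.2 (rank 12) and 13.1 (rank 8), and its summits stood close to the middle, 403 and 419 bp from LAC1 and 348 and 332 bp from CAP1. In position 2 came the space of IPT1, the enzyme of the last step of complex sphingolipid synthesis, and SNF11, a subunit of the SWI/SNF chromatin remodeller (chromosome IV, 591345 to 592438). There the fold enrichments were 15.1 and 16.0, and the shared summit lay 428 bp from IPT1 and 667 bp from SNF11. LAG1, the paralog of LAC1, had no member in its divergent space of 728 bp with HSE1. Of the 11 divergent spaces next to a listed sphingolipid gene, 4 held a member in replicate 1, 4 in replicate 2 and 3 overlapping members of both, against 17.6, 12.6 and 10.5% of all divergent spaces. The third with overlapping members was that of the ceramidase gene YPC1 (7.44-fold and 2.94-fold). SCS7, a sphingolipid hydroxylase gene, had a member in replicate 1 alone (8.84-fold), and LCB1, which encodes a subunit of serine palmitoyltransferase, had one in replicate 2 alone (3.30-fold).

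ICT1, an acyltransferase gene of phospholipid synthesis, shares 396 bp with MIM2, a gene of mitochondrial protein import, and had its replicate 1 summit 229 bp from ICT1 and 168 bp from MIM2. RTA1, of a family of lipid-translocating membrane proteins, shares 1109 bp with the ribosomal protein gene RPS0A (chromosome VII, 919466 to 920574). In replicate 1 a summit stood 190 bp from RTA1 (5.08-fold) and a weaker one 578 bp from it (2.62-fold). The single replicate 2 summit (5.69-fold) lay 651 bp from RTA1 and 459 bp from RPS0A, and it overlapped only the weaker replicate 1 peak. The replicates therefore gave no shared peak at the RTA1 end.

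The hexose transporter genes HXT9 and HXT11 sit in near-identical subtelomeric settings, opposite the isomaltase genes IMA4 and IMA2. At IMA4/HXT9 both replicates had a member, 475 bp from HXT9 at 7.68-fold in replicate 1 and 510 bp from it at 5.92-fold in replicate 2. At IMA2/HXT11 replicate 1 alone had one, 483 bp from HXT11 at 8.89-fold. Because these copies are near-identical, reads from 1 may have been placed at the other, and both values are uncertain.

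Among regulator genes, PDR3 itself shares the shortest space with overlapping members, 340 bp, with LDB7, which encodes a subunit of the RSC chromatin remodeller (chromosome II, 217130 to 217469). The replicate 1 peak was 19.3-fold enriched (rank 6), with its summit 205 bp from PDR3 and 136 bp from LDB7. In replicate 2 the peak was 6.99-fold enriched (rank 56), 234 bp from PDR3 and 107 bp from LDB7. PDR1 shares 556 bp with ERG4, the enzyme gene of the last step of ergosterol synthesis (chromosome VII, 472299 to 472854). Here the members were the lowest of all 160 shared spaces, 1.96-fold and 2.52-fold, and lay nearer to ERG4 (194 and 227 bp) than to PDR1 (363 and 330 bp). YRR1, which encodes another zinc-cluster activator of drug resistance genes, had a member in replicate 1 alone, 6.79-fold, 260 bp away, in its space with DDP1. The divergent spaces of TBS1, PDR8 and YRM1 held none, so that 3 of the 6 spaces next to listed zinc-cluster regulators had a member in replicate 1 and 2 in replicate 2 (all divergent spaces: 17.6 and 12.6%).

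Ribosomal protein genes, which are among the most highly transcribed of growing cells, bordered many of the remaining members. Of the 72 divergent spaces next to a cytosolic ribosomal protein gene, 50 held a member in replicate 1 (69.4%), 41 in replicate 2 (56.9%) and 38 overlapping members of both (52.8%), against 17.6, 12.6 and 10.5% of all divergent spaces. Their median length was 780.5 bp, and in all divergent spaces of 701 to 1000 bp the shares were 27.4% and 18.7%. The strongest members had a median rank of 387 of 792 and 259 of 485, and the best of these spaces stood in position 20 of 160. In 5 spaces both genes encode ribosomal proteins, and all 5 had overlapping members: RPS16B/RPL13A, RPL13B/RPS16A, RPS22A/RPL39, RPS15/RPP2A and RPL24A/RPL30. Fold enrichments in these 5 were 2.67 to 4.71 in replicate 1 and 3.85 to 7.10 in replicate 2. Where 1 gene of the pair was ribosomal, the strongest summit was nearer to it in 31 of 45 spaces in replicate 1 and in 21 of 36 in replicate 2. It was nearer to the partner in 14 spaces of each, with 1 tie in replicate 2. Over all these spaces the ribosomal gene was a median of 286 and 299.5 bp away. Other lists were mixed, with 7 of 10 and 3 of 7 for reported targets and 4 of 6 and 5 of 5 for glycolytic genes. Sphingolipid genes had 2 of 4 in each, and zinc-cluster regulators 1 of 3 and 0 of 2. Departure from an even split was not tested. No list of control antibody peaks was analysed here, so how much of this signal a control would show was not tested.

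The 8 core histone genes lie in 4 divergent pairs, each sharing 1 promoter. All 4 held a replicate 1 member and 3 a replicate 2 member, with 17.6 and 12.6% of all divergent spaces holding one. Their median length was 687.5 bp, and in all divergent spaces of 501 to 700 bp the shares were 21.8% and 13.5%. HHF1/HHT1 had 6.41-fold and 4.65-fold, HHT2/HHF2 4.53-fold and 3.37-fold, and HTA2/HTB2 2.94-fold and 3.04-fold. HTB1/HTA1 had a replicate 1 peak alone (2.89-fold, rank 738). At HHT2/HHF2 the summits stood close to the middle, 319 and 301 bp from HHT2 and 358 and 376 bp from HHF2. The divergent GAL1/GAL10 promoter (668 bp), whose genes are induced by galactose, held no member in these cells. Neither did most divergent spaces of 501 to 700 bp, so the absence at this 1 space tells little.

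Of 8 divergent spaces next to a glycolytic or fermentative gene, 6 held a member in replicate 1 and 5 in replicate 2, the same 5 with overlapping members. Of all divergent spaces 17.6, 12.6 and 10.5% did so, and the 8 spaces were long, with a median of 1343 bp. In the class of 1001 to 1500 bp 42.5% of all divergent spaces held a member in replicate 1 and 36.2% in replicate 2. The 2 without one, at ENO2 and TDH1, were 173 and 267 bp long. PUP2/ENO1 was the strongest, in position 7, with 10.7-fold and 9.23-fold. PUP2 encodes a subunit of the proteasome core and ENO1 an enolase. The summits were nearer to ENO1, at 651 and 536 bp, than to PUP2, at 1136 and 1251 bp. At PFK2/YMR206W the values were 6.86 and 7.43. The peaks of ADP1/PGK1 and TDH2/MET3 had 2.94 and 2.61-fold in replicate 1 and 3.18 and 5.13-fold in replicate 2. In the space of the pyruvate kinase gene CDC19 with CYC3, the overlapping peaks had 2.33-fold in replicate 1 and 5.82-fold in replicate 2, with summits 726 and 638 bp from CDC19. The strongest replicate 1 member there (2.97-fold) was another peak, 242 bp from CYC3, without a match.

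The 10 best-ranked spaces held 4 reported targets, and the others bordered genes outside that list. Reported targets bordered 7 of the 160 spaces with overlapping members and 11 of all 1527 divergent spaces. SOK2/SPO20 held position 5, with 14.2-fold and 8.97-fold. Its summits lay 604 and 597 bp from SOK2, a regulator of filamentous growth, and 1292 and 1299 bp from the sporulation gene SPO20. TYE7/REV1 (3758 bp) had 9.71-fold and 11.2-fold at 774 and 763 bp from TYE7, an activator of glycolytic genes, and 2985 and 2996 bp from REV1, a gene of translesion DNA synthesis. STP4/SIT4 had 9.63-fold and 9.38-fold with broad peaks of 1275 and 1063 bp. SIT4 encodes a protein phosphatase and STP4 a zinc-finger protein. ASK1/SFK1 had 11.8-fold and 7.39-fold, and here the strongest summits stood 313 bp apart, nearer to SFK1 in replicate 1 and to ASK1, a kinetochore gene, in replicate 2, which also listed a second peak of nearly the same strength (7.15-fold) 246 bp from SFK1. Counting every list, 77 of the 297 spaces (25.9%) bordered a listed gene, and so did 55 of the 160 with overlapping members (34.4%) and 110 of all 1527 divergent spaces (7.20%).

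Few members lay close to the limit of the rule. In replicate 1 the summit nearest to a start was 2 bp from YPR195C, in the space with YPR196W (5.72-fold). In replicate 2 it was 5 bp from YCL042W, opposite PDI1 (3.83-fold). Just outside, the replicate 1 summit nearest to a divergent space was 13 bp inside YIL054W (4.77-fold), and the replicate 2 summit 14 bp inside YLR406C-A (5.33-fold). Within 100 bp outside a divergent space stood 14 replicate 1 and 11 replicate 2 summits. At the other extreme, the longest space with members was that of TDA8/YAL064W on chromosome I (7822 bp). Both replicates had their summit at base 20992, 574 bp from YAL064W and 7249 bp from TDA8.

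Of the 7 Pdr3 peaks, 2 lay in divergent spaces, and both overlapped members. At LDB7/PDR3 the Pdr3 summit shared base 217265 with the replicate 1 summit, 205 bp from PDR3, at 12.6-fold. At ATG40/PDR5 it shared base 619413 with both Pdr1 replicates, 427 bp from PDR5, at 8.26-fold. No Pdr3 peak was listed at the ATG40 end. The Pdr3 list has no replicate, so no error can be given for these values.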

How the data were processed

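Peak lists of 3 c-Myc CUT&RUN libraries were used, 2 for Pdr1 and 1 for Pdr3. Per the submitters' processing notes, Trimmomatic 0.33, Bowtie2, Picard, deepTools and MACS2 2.1.1 and the builds R64 and sacCer3 were used; their settings and any use of IgG or spike-in reads are not stated there. The deposited lists have no header and were read as MACS2 narrowPeak: start, end and summit, a fold enrichment (a ratio whose reference is not stated), a −log10 p-value that was not used, and a −log10 q-value. The deposited score, which is 10 times the −log10 q without its decimals in 100% of peaks, was not used. The lowest −log10 q in the Pdr1 lists was 5.05.

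Coordinates are R64, counted from 1. The RefSeq table of R64 gave 6002 protein-coding genes on 16 nuclear chromosomes. Spaces between merged genes were classed by the strands of both bounding genes. Peaks overlapping by at least 1 bp matched, and fold enrichment ranked peaks within a list. Ranking of spaces used the mean of both ranks of their strongest members. Wilson intervals used scipy 1.17.1. No test across regions was made. Simulated summits drawn inside classed spaces and genes were assigned back to them. This checks the lookup alone, not the strand rule or the gene models.

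Members and gene lists were chosen with earlier results of these data known. Named genes flank the 10 best-ranked shared spaces, spaces with members next to reported targets, core histone genes or zinc-cluster regulators, members with a Pdr3 peak, the 3 strongest unmatched members per list, the 3 spaces with most members, and the shortest and longest shared spaces; other names were chosen after their values were seen. One space that this rule names is not reported here. The ribosomal list was made by name and holds 138 genes, among them RPP1, a subunit of RNase P, which has no divergent space. Promoter sequences and the planned motif search were not used here, since no sequence table was given.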

Additional observations from a re-analysis of the deposited data

How the results depend on the processing

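Of 45 recomputed values, 37 stayed within 1.5 times (counts), within their Wilson interval (shares) or within the spread between replicates (median length and distance). Some of the 37 could not move. Leaving out 1 replicate always shifts the mean of both by less than their standard deviation, which was the spread used. Limiting replicate 2 to its own 485 peaks leaves its number of members as it was. Requiring a reciprocal overlap of 50% lowered the share of matched members from 55.7 to 40.3% in replicate 1 and from 85.1 to 59.6% in replicate 2, and requiring summits within 100 bp lowered it to 45.9 and 67.8%. A −log10 q of at least 10 gave 79.0% in replicate 2. When both lists were limited to their 485 strongest peaks, replicate 1 kept 188 members, the replicate 2 share fell to 56.25% and the spaces with overlapping members to 106; fewer peaks were compared by construction. For the other settings of these shares and counts the cause was not tested. RNA genes in the models, peak midpoints and whole peaks between the genes changed no value beyond these limits. One RNA gene whose name carries no strand letter was left out of that setting. Median space length, as the mean of both lists, was 933 bp, and 902 to 964.5 bp when 1 replicate was left out. The distance to the nearer start was 324.5 bp, and 314 to 335 bp.

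No paired analysis was possible because no result here comes from a test, and the IgG samples numbered like the Pdr1 replicates were not analysed. The planned motif alternative was not run, as no promoter sequence was given. Without read counts, a member missing from replicate 2 cannot be told apart from one below the authors' threshold.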
